A study of Mus musculus with 6 samples.

Results

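The 35 genes described here encode the machinery of glucose use and its control by oxygen: glucose transporters, glycolytic enzymes, enzymes and carriers of lactate, and the subunits, regulators and targets of the hypoxia-inducible factors (HIF). They were chosen by gene symbol from a list of this pathway, and all 35 were found among the 17464 symbols deposited for each library. Expression was measured by RNA sequencing of mammary gland from C57BL/6 mice of wild-type genotype at postnatal day 45. One group of 3 samples had received recombinant mouse CXCL14 protein, a chemokine, and the other group of 3 samples was untreated. The labels give no dose, route or duration, no vehicle control, and do not say whether replicates are separate animals. The p-values therefore cover only variation among these libraries, part of which may be technical. The series title speaks of endothelial cells and the sample labels of mammary gland.

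Glycolysis converts glucose into pyruvate in the cytosol, and lactate dehydrogenase turns pyruvate into lactate when it is not burned in mitochondria. HIF transcription factors consist of an oxygen-regulated alpha subunit, marked for destruction by prolyl hydroxylases when oxygen is present, and a stable partner. When the alpha subunit persists, HIF raises transcription of many glycolytic genes. Mammary gland takes up glucose through the transporter encoded by Slc2a1, and its epithelium uses glucose for lactose synthesis during lactation.

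Values are FPKM, fragment numbers scaled by gene length and by library total, as deposited. Between 15245981 and 16983352 reads per library were recovered from the steps of these values, and each of the 35 genes passed the filter used for testing (3 or more libraries at 1 FPKM or above), as did 11516 symbols in all. Luminal epithelial markers were present in every library, with summed FPKM over 7 of them of 259, 221 and 284 in CXCL14 replicates 1, 2 and 3 and 245, 330 and 107 in untreated replicates 1, 2 and 3. Of 5 basal epithelial markers, only 2 passed the filter, Krt14 and Acta2. Krt14 was at 1.83, 1.62 and 2.24 FPKM with CXCL14 and 1.79, 1.29 and 0.209 FPKM without. Trp63 did not exceed 0.115 FPKM in any library. B-cell markers were also abundant: 6 of them summed to between 1162 and 1399 FPKM. In such bulk tissue, fewer cells of a type and less RNA per cell cannot be told apart.

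The library labelled CXCL14 replicate 1 stood apart from the other CXCL14 libraries and lay close to untreated replicate 1. On recovered reads the mean chi-square per gene between these 2 libraries was 2.42, where counting noise alone gives about 1, while the other 14 pairs lay between 25.7 and 98.8. Over the 35 genes the median absolute difference between the 2 libraries was 0.08 on the log2(FPKM + 1) scale, beside 0.07 over all tested genes. Both libraries were kept as labelled, but whether they share a tissue sample or carry a wrong label was not tested. If so, the groups would not hold 3 independent samples each, and every value from all 6 libraries rests on that label. Results are given with all 6 libraries and also without CXCL14 replicate 1. Leaving out a CXCL14 library that resembles an untreated one widens the difference by construction, so the fit of 5 libraries is no separate evidence.

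None of the 35 genes passed the test with all 6 libraries, but the genes were not uniform: Slc2a1, Slc16a1, Pfkl, Pfkp and Ndrg1 were highest in CXCL14 replicates 2 and 3, Pdk1 and Eno1 were lowest there, and Gapdh, Pkm, Ldha and Aldoa hardly differed between groups. Limma-trend, on log2(FPKM + 1) with Benjamini-Hochberg adjustment over all 11516 genes, called 0 of 35 at an adjusted p under 0.05, beside 0% of all genes (smallest adjusted p = 0.573). Voom on recovered reads also called 0. At an unadjusted p under 0.05 there were 7 of the 35, against 7.77% (895 genes) of all tested. The log2 fold change, CXCL14 minus untreated, was positive for 20 of the 35 and for 37.2% of all genes. Its median was 0.01 over the 35 and -0.06 over all genes. Groups did not overlap for 7 of the 35 (4 above and 3 below), against 13.1% of all genes (4.74% above and 8.36% below).

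With CXCL14 replicate 1 left out, 6 of the 35 passed: Slc2a1, Pfkl, Pfkp and Slc16a1 rose, and Eno1 and Pdk1 fell. In that fit 5.18% of all genes passed, 2.16% higher and 3.02% lower. The 2 CXCL14 libraries then lay wholly above or below the untreated libraries for 15 of the 35 (8 above and 7 below), against 48.4% of all genes (13.4% above and 34.9% below). The median log2 fold change was 0.03 over the 35 and -0.10 over all genes. Median-ratio scaling of the 5 libraries moved the median over all genes to 0.01, and Slc2a1, Pfkl, Slc16a1 and Pdk1 passed while Pfkp and Eno1 did not, with 2.56% of all genes passing (2% higher and 0.564% lower, where 295 genes passed in all). Voom on the reads of the 5 libraries called the same 4. Quantile normalization of the 5 libraries left all 6 genes past the threshold. In none of the 12 settings that kept CXCL14 replicate 1 or left out both libraries numbered 1 did any of the 6 genes pass (adjusted p between 0.105 and 0.990).

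**Figure D1:**
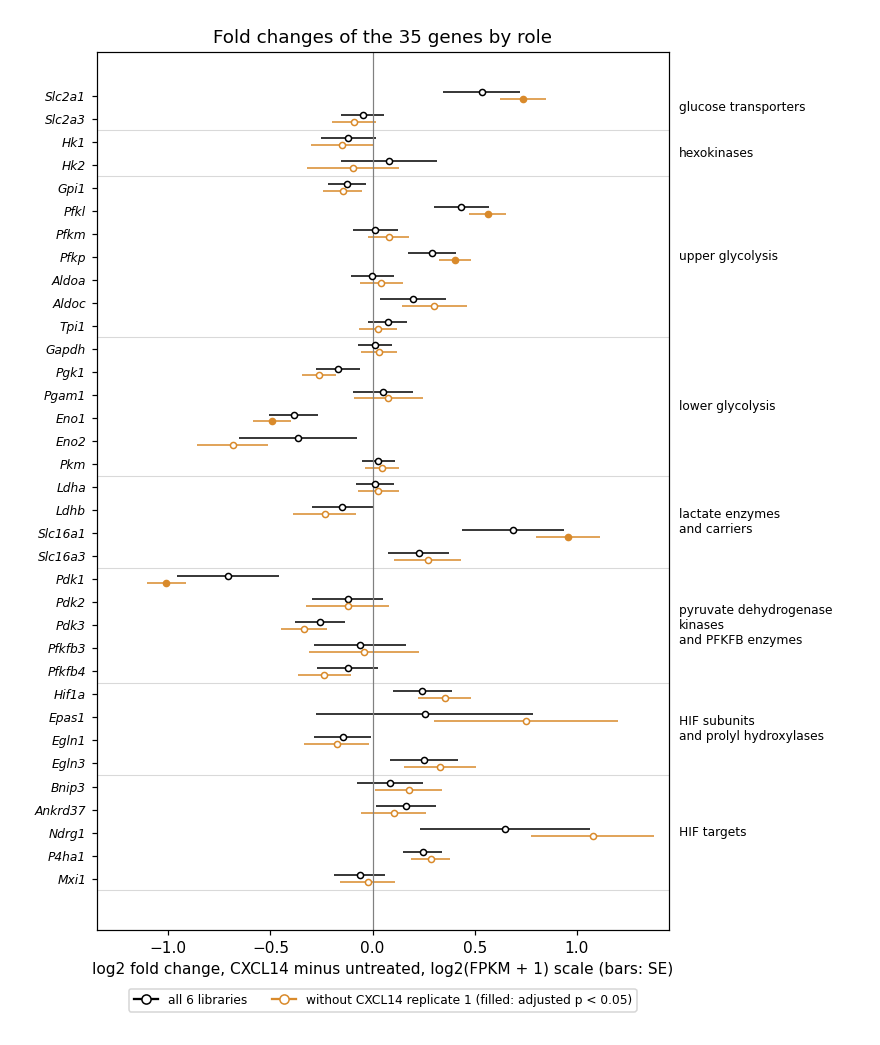
Log2 fold change, CXCL14 minus untreated on the log2(FPKM + 1) scale, for each of the 35 genes, grouped by role, with all 6 libraries (black) and without CXCL14 replicate 1 (orange). Bars are moderated standard errors, and filled points passed an adjusted p under 0.05: Slc2a1, Pfkl, Pfkp and Slc16a1 to the right and Eno1 and Pdk1 to the left, all in the fit of 5 libraries.

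The promoters of these 6 genes are shown because they moved in opposite directions while several are known targets of HIF. The promoters of Ldha and Pgk1, textbook HIF targets that did not pass in either fit, stand beside them. Each is the 250 bases before the first start site listed for the gene in RefSeq on GRCm38.p6, read along the gene's strand. That assembly is not the mm8 build named in the submitters' processing notes, and no signal was placed on these coordinates. Capitals mark the HIF core motif, ACGTG or GCGTG, on either strand (its reverse complements being CACGT and CACGC). The letters CACGTG contain the motif once on each strand and are also the E-box bound by the MYC family.
Slc2a1 (chr4:119108495-119108744, plus strand): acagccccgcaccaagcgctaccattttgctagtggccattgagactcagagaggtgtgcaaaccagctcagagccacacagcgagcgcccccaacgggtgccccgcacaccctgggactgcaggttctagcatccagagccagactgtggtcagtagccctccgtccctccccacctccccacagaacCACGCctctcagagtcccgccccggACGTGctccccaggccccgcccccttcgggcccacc
Pfkl (chr10:78009808-78010057, minus strand): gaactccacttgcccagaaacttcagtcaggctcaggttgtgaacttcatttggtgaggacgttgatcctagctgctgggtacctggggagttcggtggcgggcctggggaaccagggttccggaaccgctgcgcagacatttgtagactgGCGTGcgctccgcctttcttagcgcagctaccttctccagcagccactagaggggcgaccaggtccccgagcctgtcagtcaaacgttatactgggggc
Pfkp (chr13:6648772-6649021, minus strand): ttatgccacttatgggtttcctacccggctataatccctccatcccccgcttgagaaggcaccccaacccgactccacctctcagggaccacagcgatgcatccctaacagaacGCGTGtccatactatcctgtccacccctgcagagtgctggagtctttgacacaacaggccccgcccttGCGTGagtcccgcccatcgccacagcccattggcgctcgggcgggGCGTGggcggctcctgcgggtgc
Slc16a1 (chr3:104638414-104638663, plus strand): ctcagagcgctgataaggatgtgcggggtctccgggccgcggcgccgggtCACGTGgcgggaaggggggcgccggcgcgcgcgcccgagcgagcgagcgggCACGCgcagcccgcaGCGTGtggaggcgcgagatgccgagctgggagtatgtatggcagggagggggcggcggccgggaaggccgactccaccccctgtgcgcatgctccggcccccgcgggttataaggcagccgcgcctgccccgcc
Eno1 (chr4:150236458-150236707, plus strand): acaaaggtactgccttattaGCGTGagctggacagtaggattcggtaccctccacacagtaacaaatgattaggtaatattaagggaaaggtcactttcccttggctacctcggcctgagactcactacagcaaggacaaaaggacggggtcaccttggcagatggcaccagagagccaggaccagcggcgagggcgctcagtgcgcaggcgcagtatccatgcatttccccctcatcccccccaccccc
Pdk1 (chr2:71872974-71873223, plus strand): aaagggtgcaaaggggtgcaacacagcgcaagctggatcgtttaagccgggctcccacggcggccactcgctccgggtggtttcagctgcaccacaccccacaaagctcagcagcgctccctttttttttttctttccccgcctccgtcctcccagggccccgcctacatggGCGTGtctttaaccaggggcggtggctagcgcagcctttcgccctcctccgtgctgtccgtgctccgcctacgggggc
Ldha (chr7:46845554-46845803, plus strand): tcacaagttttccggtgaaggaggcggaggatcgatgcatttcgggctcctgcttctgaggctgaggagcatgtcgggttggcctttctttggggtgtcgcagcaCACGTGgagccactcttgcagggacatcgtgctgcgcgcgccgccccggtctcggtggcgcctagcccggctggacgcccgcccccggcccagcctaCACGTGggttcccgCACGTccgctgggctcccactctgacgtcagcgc
Pgk1 (chrX:106186850-106187099, plus strand): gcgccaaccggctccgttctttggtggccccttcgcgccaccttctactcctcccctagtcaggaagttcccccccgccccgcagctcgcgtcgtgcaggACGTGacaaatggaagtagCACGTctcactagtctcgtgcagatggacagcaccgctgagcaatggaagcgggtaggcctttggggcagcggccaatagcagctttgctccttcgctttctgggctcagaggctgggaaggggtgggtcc

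The motif was found in all 8 windows, at 2 places in Slc2a1, 1 in Pfkl, 3 in Pfkp, 3 in Slc16a1, 1 in Eno1, 1 in Pdk1, 3 in Ldha and 2 in Pgk1, counting overlapping matches as 1 place. Genes that rose, genes that fell and genes that did not pass in the fit of 5 libraries therefore all held it. Of the 32 members with a promoter in the table, 25 (78.1%) held at least 1 match, against 38.6% of 27025 genes. The members' windows were rich in CG pairs, with a median of 15 against 6 over all genes, and among the 7436 genes with at least 15 such pairs 68.1% held a match. CACGTG was present in 6 of the 32 members and in 6.05% of all genes. Its share among genes as rich in CG pairs was not computed, so these 2 values do not allow for the members' CG content. A match describes letters in a window and is not a measured binding site.

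**Figure D2:**
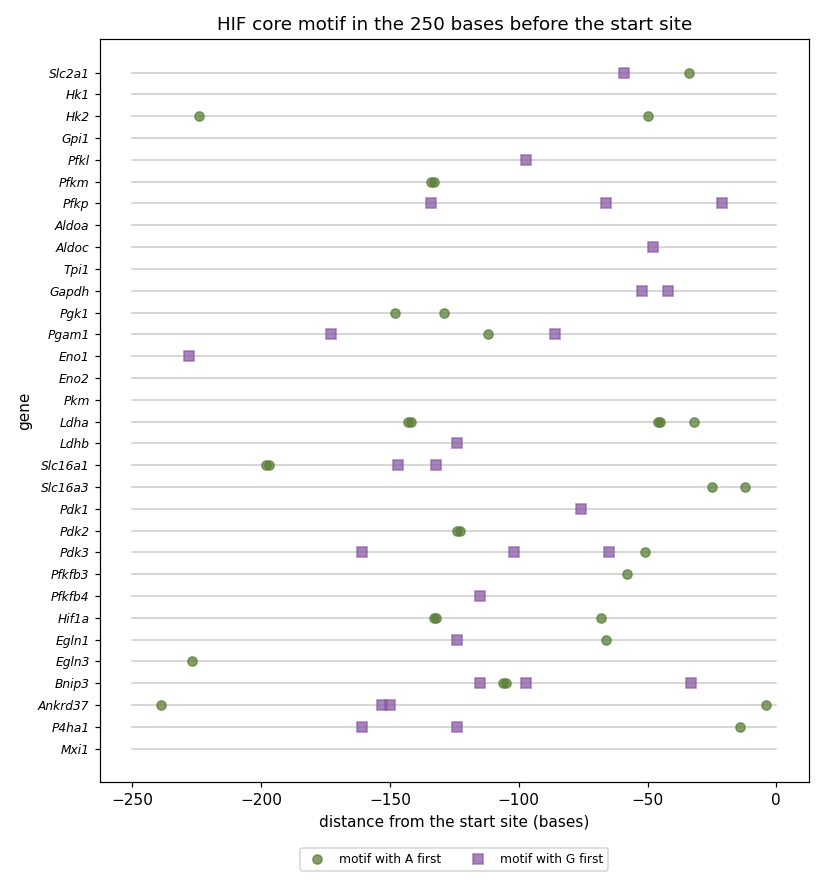
Positions of the HIF core motif in the 250 bases before the start site of the 32 genes with a listed promoter, by distance from the start site in bases, with circles where the motif begins with A and squares where it begins with G. Hk1, Gpi1, Aldoa, Tpi1, Eno2, Pkm and Mxi1 have no match in this window, and the other 25 have between 1 and 5.

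Of the glucose transporters, Slc2a1 was higher with CXCL14 in each library and Slc2a3 was not. Slc2a1, which encodes the widespread transporter GLUT1, was at 42.6, 69.5 and 61.7 FPKM in CXCL14 replicates 1, 2 and 3, against 38.8, 35.7 and 42.5 FPKM in untreated replicates 1, 2 and 3. The groups did not overlap, although CXCL14 replicate 1 exceeded the highest untreated library only narrowly. The log2 fold change was 0.53 (SE 0.19, limma-trend adjusted p = 0.573) with all libraries and 0.74 (SE 0.11, limma-trend adjusted p = 0.0374) without CXCL14 replicate 1. Slc2a3, which encodes the high-affinity transporter GLUT3, was at 8.27, 8.02 and 6.94 FPKM with CXCL14 and 8.69, 7.61 and 7.80 FPKM without. Its groups overlapped, with a log2 fold change of -0.05 (SE 0.11) that turned positive under median-ratio scaling (0.03). Milk genes moved with the Slc2a1 value in CXCL14 replicates 2 and 3: 6 of them summed to 9.89, 387 and 598 FPKM in CXCL14 replicates 1, 2 and 3 and to 7.10, 14.2 and 9.01 FPKM in the untreated libraries. All 4 of those 6 that were tested had positive fold changes, and none was at 0 in any library. Red blood cell genes, 5 in number, summed to 8.16, 46.1 and 70.6 FPKM with CXCL14 and 10.7, 29.5 and 22.2 FPKM without. The part of either cell type in the Slc2a1 result was not tested.

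The hexokinases, which phosphorylate glucose on entry, showed no difference beyond the spread of libraries. Hk1, the widespread form, was at 20.5, 16.9 and 21.8 FPKM with CXCL14 and 19.9, 24.6 and 20.0 FPKM without. Hk2, the insulin- and HIF-responsive form, was at 5.64, 3.45 and 3.77 FPKM with CXCL14 and 5.20, 4.15 and 2.73 FPKM without. Both overlapped between groups, and for Hk2 the 2 replicate 1 libraries were the highest of their groups. Log2 fold changes were -0.12 (SE 0.13) for Hk1 and 0.08 (SE 0.23) for Hk2, which turned to -0.09 without CXCL14 replicate 1.

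In upper glycolysis, 2 of the 3 phosphofructokinase genes were higher with CXCL14. Phosphofructokinase commits sugar to glycolysis, and its subunits assemble as tetramers in mixtures that differ between tissues. Pfkl, the liver-type subunit, was at 19.6, 27.4 and 24.6 FPKM with CXCL14, against 16.8, 16.8 and 18.2 FPKM in untreated libraries. All CXCL14 values lay above all untreated values, for a log2 difference of 0.43 (SE 0.13, limma-trend adjusted p = 0.573), and of 0.56 (SE 0.09, limma-trend adjusted p = 0.0424) without CXCL14 replicate 1. Pfkp, the platelet-type subunit, was at 26.8, 33.8 and 34.8 FPKM with CXCL14, against 26.2, 25.5 and 25.3 FPKM without. The groups again did not overlap, though CXCL14 replicate 1 lay just above untreated replicate 1. For Pfkp the log2 fold change was 0.29 (SE 0.12, limma-trend adjusted p = 0.573), and 0.40 (SE 0.08, limma-trend adjusted p = 0.0489) in the fit of 5 libraries, a call lost there under median-ratio scaling. Pfkm, the muscle-type subunit, averaged 6.11 ± 0.627 FPKM with CXCL14 and 6.03 ± 0.422 FPKM without (SD, n = 3 each), with a log2 fold change of 0.01 (SE 0.11). Its log2 ratio to Pfkl, on FPKM + 1, was -1.67, -2.0 and -1.72 in the CXCL14 libraries and -1.30, -1.28 and -1.55 in the untreated ones. This was the 1 ratio of 12 between related members whose groups did not overlap. Groups did not overlap for 13.1% of all genes taken singly, and the share over other gene pairs was not computed. The count is therefore no result about these families.

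The other upper enzymes differed little between groups. Aldoa, the main aldolase of this tissue and the gene with the highest mean of the 35 over all 6 libraries, though below Eno1 in the untreated libraries and in CXCL14 replicate 1, was at 122, 123 and 145 FPKM with CXCL14 and 128, 126 and 134 FPKM without, a log2 fold change of -0.001 (SE 0.10). Its groups overlapped and its sign changed with the scaling (0.08 with median ratios). Gpi1, which encodes the isomerase after hexokinase, averaged 115 ± 2.84 FPKM with CXCL14 and 126 ± 8.55 FPKM without. Tpi1, triose phosphate isomerase, averaged 46.2 ± 3.50 and 43.8 ± 2.11 FPKM in CXCL14 and untreated libraries. Aldoc, an aldolase best known from brain, was low, between 2.24 and 3.30 FPKM with CXCL14 and between 1.86 and 2.74 FPKM without.

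**Figure D3:**
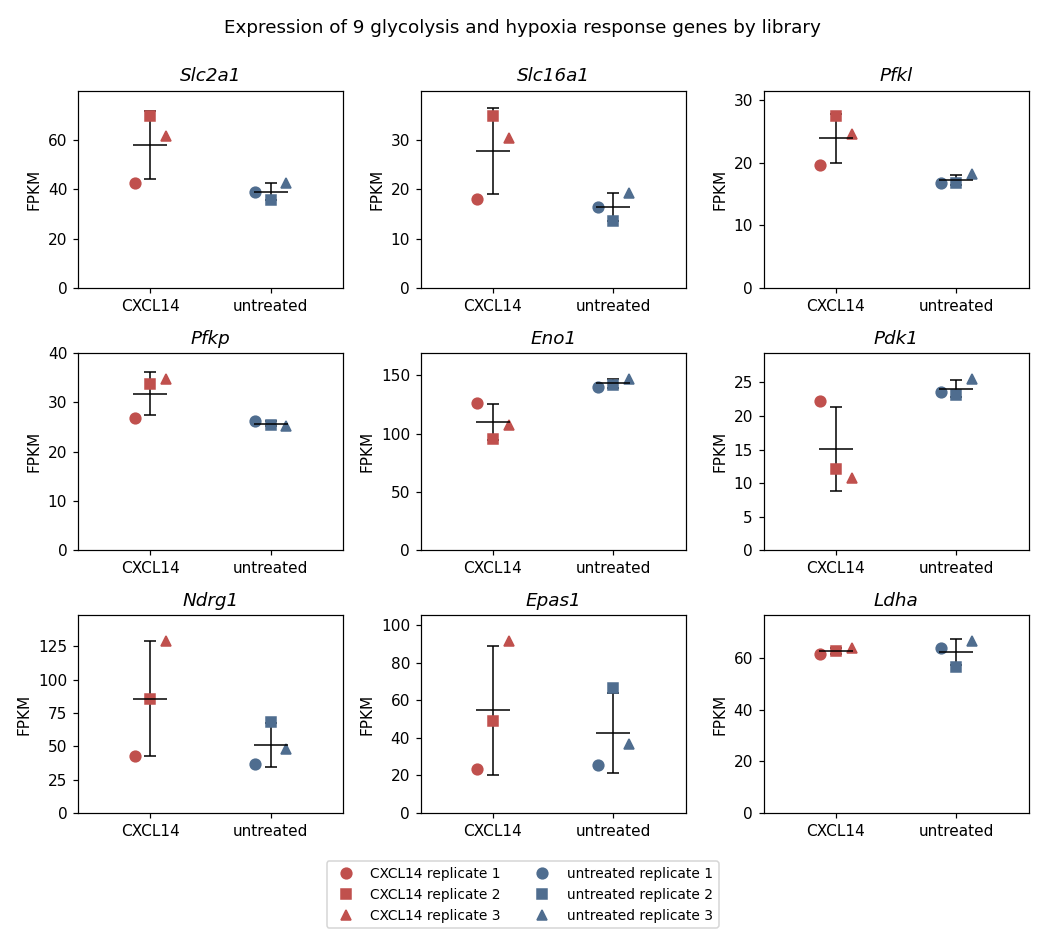
FPKM of 9 of the genes in each library, with one panel per gene and linear axes from 0. Symbols mark the replicate, horizontal bars the group mean and whiskers the SD of 3 libraries. CXCL14 replicate 1 (circle) sits near the untreated libraries in Slc2a1, Slc16a1, Pfkp and Pdk1, where CXCL14 replicates 2 and 3 stand apart, while Ldha lies between 56.6 and 66.5 FPKM throughout.

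Lower glycolysis did not move as a unit: Eno1 and Eno2 were lower in CXCL14 replicates 2 and 3, while Gapdh, Pgam1 and Pkm hardly differed. Eno1, the widespread enolase, was at 127, 95.7 and 107 FPKM with CXCL14, against 140, 142 and 147 FPKM without. All CXCL14 values lay below all untreated values, and the untreated libraries were close together. Its log2 fold change was -0.39 (SE 0.12, limma-trend adjusted p = 0.573), and -0.49 (SE 0.09, limma-trend adjusted p = 0.0491) without CXCL14 replicate 1. Eno1b, a near-identical copy whose reads cannot be surely told from those of Eno1, was at 1.75, 1.55 and 1.5 FPKM with CXCL14 and 1.97, 2.41 and 2.52 FPKM without, between 1.39% and 1.71% of the Eno1 value. Eno2, the neuronal enolase, was low, at 2.98, 0.982 and 1.13 FPKM with CXCL14 and 2.87, 2.33 and 1.79 FPKM without, on as few as 53 recovered reads. CXCL14 replicates 2 and 3 lay below every other library for Eno2, which did not pass in either fit (log2 fold changes of -0.37 and, without CXCL14 replicate 1, -0.69). Nerve and Schwann cell markers, of which 5 of 6 listed were present, summed to 23.5, 8.96 and 13.3 FPKM with CXCL14 and 24.5, 28.5 and 18.1 FPKM without, and their part in the Eno2 value was not tested.

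Pgk1, which makes the first ATP of the pathway, was at 58.6, 48.6 and 47.5 FPKM with CXCL14 and 60.5, 57.0 and 56.0 FPKM without. CXCL14 replicates 2 and 3 were the lowest of the 6 libraries, but the log2 fold change of -0.17 (SE 0.11) did not pass, nor did that of -0.26 without CXCL14 replicate 1. Gapdh averaged 39.8 ± 1.70 FPKM with CXCL14 and 39.5 ± 1.73 FPKM without, and Pkm, pyruvate kinase of non-liver tissue, averaged 89.0 ± 2.51 and 87.2 ± 2.28 FPKM (SD, n = 3 each). Their log2 fold changes were 0.01 (SE 0.09) and 0.03 (SE 0.08). Pgam1, phosphoglycerate mutase, had 0.05 (SE 0.15). Gapdh lay below Aldoa, Eno1, Gpi1 and Pkm on this scale. Several of these genes have many processed copies in the mouse genome, and the treatment of reads shared with copies is not known here, so levels of Gapdh, Eno1, Pgk1, Ldha and Pgam1 are uncertain.

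Among lactate genes, the carrier Slc16a1 was higher in CXCL14 replicates 2 and 3, and lactate dehydrogenase was not. Slc16a1, which encodes the monocarboxylate transporter MCT1, was at 18.1, 34.7 and 30.3 FPKM with CXCL14, against 16.5, 13.5 and 19.1 FPKM in untreated libraries. The groups overlapped because CXCL14 replicate 1 lay under untreated replicate 3. The log2 fold change was 0.69 (SE 0.25, limma-trend adjusted p = 0.573), and 0.96 (SE 0.16, limma-trend adjusted p = 0.0427) without CXCL14 replicate 1. The latter was the largest among the 4 of the 35 genes that passed as higher in that fit. Ndrg1, which did not pass, had a larger value there (1.08). Neutrophil markers, 7 of 7 positive, were high in the same libraries, with sums of 35.9, 280 and 380 FPKM in CXCL14 replicates 1, 2 and 3 and 42.9, 21.3 and 9.94 FPKM in the untreated libraries, and their part in the Slc16a1 result was not tested. Ldha, whose subunit favours lactate formation, was at 61.4, 62.6 and 64.0 FPKM with CXCL14 and 63.7, 56.6 and 66.5 FPKM without. The CXCL14 values lay inside the untreated range, with a log2 fold change of 0.01 (SE 0.09). Ldhb, the heart-type subunit, averaged 10.6 ± 1.31 FPKM with CXCL14 and 11.9 ± 2.10 FPKM without. Slc16a3, the lactate exporter MCT4 and a HIF target, was the lowest of the 35 genes, at 1.86, 1.86 and 2.42 FPKM with CXCL14 and 1.92, 1.28 and 1.63 FPKM without, a log2 fold change of 0.23 (SE 0.15) that did not pass.

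All 5 kinase and PFKFB genes had negative log2 fold changes, in a fit where 37.2% of all genes were positive. Pdk1 had the lowest of the 35. Pyruvate dehydrogenase kinases switch off the entry of pyruvate into mitochondria, and PFKFB enzymes set the level of an activator of phosphofructokinase. Pdk1, a kinase induced by HIF in many cells, was at 22.3, 12.2 and 10.8 FPKM with CXCL14, against 23.6, 23.1 and 25.6 FPKM without. All CXCL14 values lay below all untreated values, CXCL14 replicate 1 by a narrow margin. For Pdk1 the log2 fold change was -0.71 (SE 0.25, limma-trend adjusted p = 0.573), and -1.01 (SE 0.10, limma-trend adjusted p = 0.0236) in the fit of 5 libraries. Pdk3 was at 2.57, 1.97 and 2.13 FPKM with CXCL14 and 2.62, 2.92 and 3.00 FPKM without, a log2 fold change of -0.26 (SE 0.12). Its groups did not overlap either, yet it passed in neither fit. Pdk2 had a log2 fold change of -0.12 (SE 0.18). The log2 ratio of Pdk3 to Pdk1 was -2.71, -2.15 and -1.91 in the CXCL14 libraries and -2.77, -2.62 and -2.73 in the untreated ones, again on FPKM + 1, and was higher in CXCL14 replicates 2 and 3 than in any other library. T-cell markers were also lower in CXCL14 replicates 2 and 3: 7 of 7 had negative fold changes and they summed to 591, 358 and 300 FPKM with CXCL14 and to 641, 516 and 642 FPKM without. Their part in the Pdk1 result was not tested.

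Pfkfb3 varied more within groups than between them, at 26.8, 24.0 and 32.7 FPKM with CXCL14 and 26.8, 40.2 and 22.2 FPKM without. Untreated replicate 2 was the highest and untreated replicate 3 the lowest, and the log2 fold change of -0.06 (SE 0.23) turned to 0.02 with median-ratio scaling. Pfkfb4 averaged 3.50 ± 0.664 FPKM with CXCL14 and 3.88 ± 0.521 FPKM without. Under median-ratio scaling 4 of the 5 genes stayed negative.

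The HIF subunits had higher means with CXCL14 but overlapped. Hif1a was at 33.8, 40.9 and 44.7 FPKM with CXCL14, against 29.9, 38.6 and 31.9 FPKM without. CXCL14 replicates 2 and 3 were above every untreated library, and the log2 fold change was 0.24 (SE 0.14), or 0.35 (SE 0.13) without CXCL14 replicate 1, passing in neither fit. Epas1, which encodes the HIF-2 alpha subunit prominent in endothelium, was at 23.3, 49.1 and 91.4 FPKM with CXCL14 and 25.3, 66.2 and 36.5 FPKM without. It spread widely in both groups and was lowest in the 2 replicate 1 libraries, with a log2 fold change of 0.26 (SE 0.53). It turned to -0.21 without CXCL14 replicate 3 and to -0.06 without untreated replicate 1. Blood endothelial markers, 8 of 8 positive and none at 0, ran alongside, with sums of 381, 680 and 1123 FPKM in CXCL14 replicates 1, 2 and 3 and 382, 759 and 616 FPKM in untreated replicates 1, 2 and 3, and their part in the Epas1 values was not tested. HIF is controlled mainly through protein stability, which these data do not measure.

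The prolyl hydroxylases differed by less than the spread of the libraries. Egln1, the main oxygen sensor PHD2, averaged 16.0 ± 1.81 FPKM with CXCL14 and 17.8 ± 2.68 FPKM without. Egln3, PHD3, itself a HIF target, was at 2.44, 2.45 and 3.73 FPKM with CXCL14 and 2.54, 2.16 and 1.97 FPKM without. CXCL14 replicate 3 was the highest for Egln3 and the other 5 libraries lay close together, with a log2 fold change of 0.25 (SE 0.17).

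Of the 5 HIF target genes outside glycolysis, Ndrg1 had the largest fold change and P4ha1 the smallest unadjusted p. Ndrg1, a stress-responsive gene, was at 42.4, 85.5 and 129 FPKM with CXCL14, against 36.4, 68.5 and 47.6 FPKM without. CXCL14 replicates 2 and 3 were the highest of the 6 libraries and the 2 replicate 1 libraries were the 2 lowest. The log2 fold change was 0.65 (SE 0.42, limma-trend adjusted p = 0.598), and 1.08 (SE 0.30, limma-trend adjusted p = 0.0915) without CXCL14 replicate 1. White adipocyte markers had positive fold changes for 6 of the 7 tested. Most of their summed level came from Fabp4, which capillary endothelium also expresses. The other 7 of the 8 listed summed to 37.0, 51.7 and 121 FPKM in the CXCL14 libraries and 36.4, 69.2 and 59.9 FPKM in the untreated ones, lowest in the replicate 1 libraries, and their part in the Ndrg1 values was not tested. P4ha1, a collagen prolyl hydroxylase, was at 12.6, 13.8 and 13.9 FPKM with CXCL14 and 12.2, 10.8 and 10.6 FPKM without. The groups did not overlap, and the log2 fold change was 0.24 (SE 0.10, limma-trend adjusted p = 0.573, unadjusted p = 0.0409), or 0.29 without CXCL14 replicate 1 (limma-trend adjusted p = 0.124). Fibroblast markers, 6 of 6 negative, differed mostly within groups, with sums of 591, 52.4 and 69.9 FPKM with CXCL14 and 629, 540 and 59.9 FPKM without. Bnip3, a mitophagy receptor, Ankrd37 and Mxi1, a MYC antagonist, had log2 fold changes of 0.09 (SE 0.16), 0.16 (SE 0.15) and -0.06 (SE 0.13), all with overlapping groups.

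**Figure D4:**
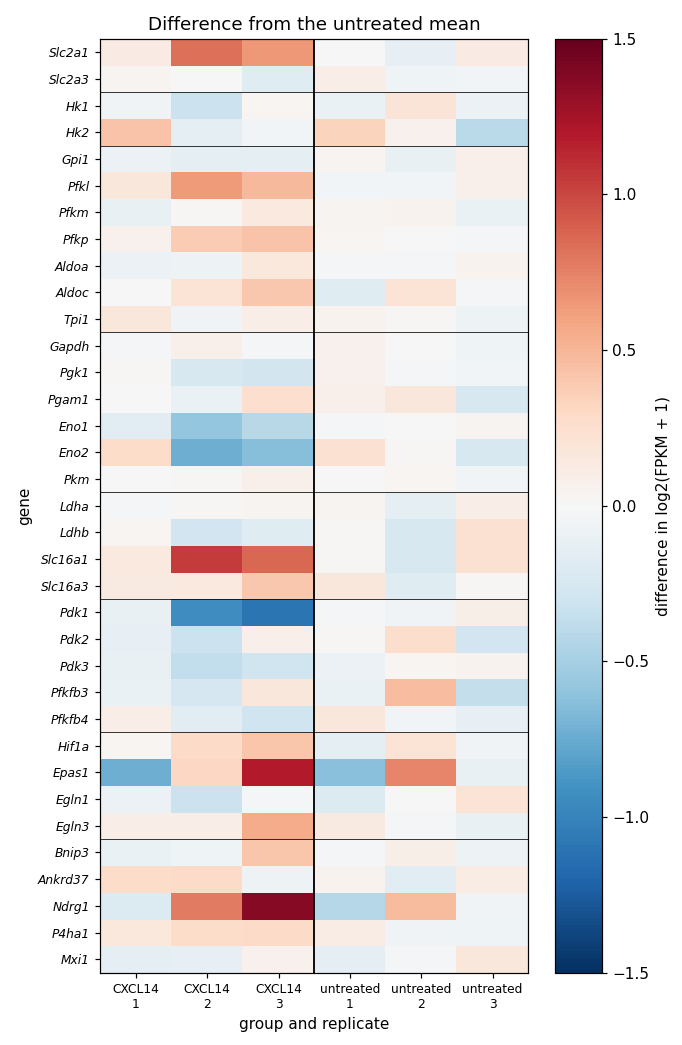
Difference of each library's log2(FPKM + 1) from the untreated mean for the 35 genes (rows, grouped by role) in CXCL14 replicates 1 to 3 and untreated replicates 1 to 3. Red is higher and blue lower: CXCL14 replicates 2 and 3 differ from the rest in Slc2a1, Slc16a1, Pfkl, Pdk1, Eno1 and Ndrg1, and the 2 replicate 1 libraries look alike.

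Summed over genes, lower glycolysis was lower with CXCL14, while upper glycolysis and the HIF targets overlapped between groups. The 6 lower glycolysis genes together had 332, 293 and 309 FPKM with CXCL14 and 352, 351 and 343 FPKM without. The 7 upper genes had 344, 348 and 375 FPKM with CXCL14 and 354, 339 and 359 FPKM without. The lower sum was thus below every untreated library in each CXCL14 library, largely through Eno1, while the upper sums overlapped. The 5 HIF targets summed to 68.7, 113 and 159 FPKM with CXCL14 and 61.8, 92.9 and 72.7 FPKM without, most of it Ndrg1.

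A wider list of the pathway held 110 other genes present in the files, of which 92 were tested. With all libraries 0 of the 92 passed. Positive log2 fold changes numbered 41 of the 92 (median -0.02), against 37.2% of all genes (median -0.06). Under median-ratio scaling, which moved the median over all genes to 0.01, 57 were positive. Without CXCL14 replicate 1, 4 passed as higher (Vegfa, Maff, Wsb1 and Pdk4) and 0 as lower, beside 2.16% of all genes higher and 3.02% lower. Within that fit of 5 libraries, median-ratio scaling and voom each called 3 of the 92, and quantile normalization called 5. In none of the 12 settings that kept CXCL14 replicate 1 or left out both libraries numbered 1 did any of the 4 pass (adjusted p between 0.105 and 0.990). Of the 44 tested genes of glucose handling 17 were positive, and of the 49 of oxygen sensing and HIF targets 24 were, Gbe1 being in both.

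Pdk4, a pyruvate dehydrogenase kinase that serves fasting and fat oxidation, went the opposite way to Pdk1. It was at 2.03, 6.90 and 10.1 FPKM with CXCL14 and 1.84, 2.81 and 1.51 FPKM without, high in CXCL14 replicates 2 and 3, with log2 fold changes of 1.10 (SE 0.46) and, without CXCL14 replicate 1, 1.64 (limma-trend adjusted p = 0.0338). Vegfa, the vascular growth factor and a HIF target, was at 8.65, 11.7 and 12.1 FPKM with CXCL14 and 7.52, 5.99 and 4.86 FPKM without. Its groups did not overlap, for a log2 difference of 0.73 (SE 0.18, limma-trend adjusted p = 0.573). Without CXCL14 replicate 1 the Vegfa difference was 0.87 (SE 0.17, limma-trend adjusted p = 0.0495), close to the threshold. Wsb1, a ubiquitin ligase adaptor, and Maff, a small MAF transcription factor, also had all CXCL14 values above all untreated ones, with log2 fold changes of 0.53 (SE 0.19) and 0.70 (SE 0.23). On the lower side stood Txnip, which restrains glucose uptake, at 481, 418 and 442 FPKM with CXCL14 and 520, 528 and 583 FPKM without, a log2 fold change of -0.28 (SE 0.11). Its groups did not overlap and it passed in neither fit. Zfp395 and Gbe1, the glycogen branching enzyme, had -0.30 (SE 0.14) and -0.30 (SE 0.13).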

How the data were processed

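Mammary gland RNA, 2 µg per sample per the labels' protocols, was sequenced for 3 CXCL14 and 3 untreated samples. The authors deposited 1 FPKM value per gene symbol and library, per the file headers. The submitters' processing notes list the build mm8 and, without saying what each did, HTSeq 0.6.0, HISAT2 2 and Bowtie2 2.2.3. Nothing used here states the annotation, gene lengths, strand setting or filters. The members, lists, tests and settings were chosen with earlier results of these data known.

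Genes were kept where 3 or more libraries reached 1 FPKM. Limma-trend (limma 3.58.1, R 4.3.3) was fitted to log2(FPKM + 1) without covariates, and p-values were adjusted over all kept genes. Fold changes on that scale understate the change of low genes. Standard errors are moderated. Values were whole multiples of 1 step per gene and library within 0.004 reads for all 17464 symbols. The multiples are the read numbers, unless every library's number shares a divisor. These reads served for depth, library comparison and a voom alternative. The code was tested on simulated data. Every member was named. Full values were given by role for the 2 with the smallest p, the most abundant, and any past the threshold with all libraries or without CXCL14 replicate 1. Of the wider list, the 3 highest and 3 lowest fold changes among the 12 smallest p were named, and any past the threshold. Marker lists were described by sums and counts. Alternatives were another pseudocount, no filter, 2 scalings, leaving out libraries, a replicate block and voom. Scalings and voom within the fit of 5 libraries were added after the data were seen.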

Additional observations from a re-analysis of the deposited data

How the results depend on the processing

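With 1 library left out at a time, genes called ranged from 0 to 597, calls among the 35 from 0 to 6, calls in the wider list from 0 to 4, and members whose groups did not overlap from 8 to 15. In each case the highest value came without CXCL14 replicate 1, where groups did not overlap for 48.4% of all genes. Without both libraries numbered 1, limma-trend called 15 genes (14 higher, 1 lower), 0 of the 35 passed, and 18 of the 35 did not overlap. Groups of fewer libraries overlap less often by construction. The share of all genes not overlapping was not computed for this setting or for the other single libraries left out. Those counts are therefore no result about the 35. The fit of 5 libraries called 249 genes higher and 348 lower. With median-ratio scaling it called 295 genes (230 higher, 65 lower) and 4 of the 35. With quantile normalization it called 477 (291 higher, 186 lower) and 6 of the 35. With voom it called 419 (190 higher, 229 lower) and 4 of the 35. The cause was not tested.

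Of the 35 genes, 23 kept their direction under all 13 settings that changed 1 choice or left out both libraries numbered 1 (13 positive, 10 negative), among them the 6 that passed without CXCL14 replicate 1. The other 12 changed sign. Median-ratio scaling gave log2 fold changes of 0.0277 for Slc2a3, 0.0845 for Aldoa, 0.0218 for Pfkfb3 and 0.00860 for Mxi1. Quantile normalization gave 0.0117 for Slc2a3 and 0.0164 for Mxi1, and leaving out both libraries numbered 1 gave 0.0363 for Aldoa. Over single libraries left out, log2 fold changes ranged as follows: Slc2a3 from -0.0924 to 0.0195, Hk2 from -0.119 to 0.247, Pfkm from -0.0493 to 0.0781, Aldoa from -0.0830 to 0.0429, Gapdh from -0.0228 to 0.0410, Pgam1 from -0.0719 to 0.137, Ldha from -0.0541 to 0.0604, Pdk2 from -0.265 to 0.00970, Pfkfb3 from -0.243 to 0.171, Epas1 from -0.212 to 0.750, Bnip3 from -0.0812 to 0.176 and Mxi1 from -0.137 to 0.0227. The median over the 35 ranged from -0.03 (without CXCL14 replicate 3) to 0.04 when 1 library was left out.

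Same-numbered samples were alike for number 1 but not for numbers 2 and 3, and the labels do not say how the numbers were given. Deviations of same-numbered samples correlated at 0.69, -0.30 and 0.06 for numbers 1, 2 and 3, and CXCL14 replicate 2 correlated best with untreated replicate 3 (0.60). A fit with the replicate block called 0 genes and 0 of the 35. Depth limits the low genes most: Eno2 and Slc16a3 rested on as few as 53 and 68 reads in a library.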
